A study of Mus musculus with 57 samples.

Results

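The extracellular matrix and fibrosis genes described here are 44 mouse genes that encode collagens, other structural matrix proteins, matrix crosslinking enzymes and cytoskeletal or receptor genes used as signs of matrix-producing mesenchymal cells. They were chosen by gene symbol, not by a measured value, and all 44 were found among the 24941 gene symbols of the count table. Where a symbol had several RefSeq transcripts (15 of the 44), the transcript with the highest total count stood for the gene. The genes were ordered by role into 8 groups: 6 fibril-forming collagen chains, 9 basement membrane and network members, 6 beaded-filament and fibril-associated collagens, 6 fibronectin and elastic fibre members, 3 small leucine-rich proteoglycans, 5 matricellular proteins, 3 lysyl oxidases, and 6 mesenchymal cytoskeleton and receptor genes.

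In liver fibrosis, activated hepatic stellate cells and portal fibroblasts are known as the main makers of fibril-forming collagens, which are assembled into fibres, decorated with proteoglycans such as decorin and crosslinked by lysyl oxidases. Transforming growth factor beta (TGF-beta), released from latent complexes in the matrix and supplied in part by macrophages, is the best known signal that drives this programme. Liver macrophages are known mainly for such signals and for matrix breakdown, although monocytes and some macrophages make fibronectin and other matrix proteins themselves.

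The study sequenced RNA from 57 mouse libraries in 16 groups, in a diet model of nonalcoholic steatohepatitis (NASH), a fatty and inflamed liver that can scar. The 22 whole livers came from mice labelled Clec4f-cre DTR neg (10 livers) or Clec4f-cre DTR pos (12 livers), all after 4 weeks of the CDAHFD NASH diet. DTR is the diphtheria toxin receptor and Clec4f is a Kupffer cell gene whose promoter drives the Cre recombinase, so the design addresses Kupffer cell loss. The labels do not say whether toxin was given, and no whole liver from a control diet was among the libraries. The sorted cells of strain C57BL/6J formed a first set of 6 groups with 2 libraries each: Kupffer cells (F4/80-Hi Tim4-Pos) on control diet, and on NASH diet Kupffer cells, the recruited macrophages of the Kupffer niche (F4/80-Hi Tim4-Neg), those gated CD11b-Hi Ly6C-Lo and CD11b-Hi Ly6C-Hi, and Ly6C-high monocytes from blood. A second C57BL/6J set held Kupffer cells at week 0 (control diet, 3 libraries) and after 1 (2), 4 (2), 10 (3), 20 (3) and 30 (4) weeks of NASH diet. A last set came from the Kupffer niche recruited gate after 20 weeks of NASH diet, in mice with floxed LXRa and LXRb genes, 3 libraries labelled Clec4f-cre pos and 3 labelled Cre neg. The age of the mice is not given in the sources used here. Nor is it stated whether replicates came from separate mice, so p-values measure only the spread between libraries, which may in part be technical.

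Counted reads were 5389957 to 9941477 per whole liver, 12368140 to 22707571 in the first sorted set, 10483452 to 26969509 in the time course and 2319383 to 5086239 in the LXR set. Values below are CPM (a gene's count as parts of its library's scaled total, with the scaling done within each set) when a gene is compared across libraries, and the deposited TPM, which also allow for transcript length, when genes or sets are compared with each other. A gene was called higher or lower at an adjusted p under 0.05 by edgeR's quasi-likelihood test, with the p-values of every gene tested adjusted together by the Benjamini-Hochberg method. Intervals given for reads cover counting error only. The markers followed the labels in the Kupffer cell sorts, where 9 Kupffer cell markers summed to 20920 to 49600 CPM, against 2512 to 2573 CPM in blood monocytes. In whole liver the same sum was 359.9 to 870.7 CPM in DTR pos and 477.4 to 1082 CPM in DTR neg livers, and 0 of the 9 markers were called, so the labels had no check in Kupffer cell RNA. The sum hides a wide spread of single markers over the whole livers. Clec4f ran from 1.37 to 140 CPM and Timd4 from 0.115 to 15.2 CPM, whereas Vsig4 ran from 24.5 to 91.2 CPM.

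Of the 22 whole livers, 4 stood apart from the rest: DTR neg replicate 2 and DTR pos replicates 1, 2 and 7. Their Col1a1, the alpha 1 chain of type I collagen, lay between 46.6 and 65.4 CPM, whereas the other 18 livers lay between 155 and 352 CPM with no library in between. In the same 4 livers Gpnmb, a gene of lipid-associated macrophages, was at 8.03 to 22.2 CPM, against 164 to 724 CPM in the other 18, and 6 recruited macrophage markers summed to 30.2 to 52.6 CPM against 264.5 to 895.3 CPM. Albumin (Alb) ran the other way, at 115200 to 138300 CPM in the 4 and 36220 to 83010 CPM in the 18. These livers carry the same diet label as the others, and the cause was not tested. Whole liver results that rest on these libraries are therefore given with and without them.

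By the deposited TPM, 2 members whose RNA is known to come largely from hepatocytes led the whole liver. Fn1, which encodes fibronectin, had a mean of 401.9 ± 27.2 TPM (SD, n = 22) and Col18a1, whose product releases the fragment endostatin, 328.6 ± 24.4 TPM. Decorin (Dcn, 263.6 ± 96.0 TPM), biglycan (Bgn, 199.9 ± 65.5 TPM), Sparc (105.5 ± 39.8 TPM) and vimentin (Vim, 93.2 ± 41.7 TPM) came next. The fibrillar chains Col3a1 and Col1a1 followed, at 67.5 ± 34.9 and 48.2 ± 23.8 TPM. At the low end stood Col12a1 at 0.954 ± 0.522 TPM and Col8a1, a short-chain network collagen, at 0.408 ± 0.272 TPM. From Dcn to Col1a1 the means of neighbours in this order differed by less than the larger of their SDs, except for the step from Bgn to Sparc. Without the 4 livers that stood apart, these 10 genes kept their ranks, with Dcn at 298.1 ± 65.9, Col3a1 at 79.8 ± 24.7 and Col1a1 at 56.8 ± 16.4 TPM (SD, n = 18). The steps from Dcn to Bgn and from Vim to Col3a1 then also exceeded the larger SD.

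**Figure D1:**
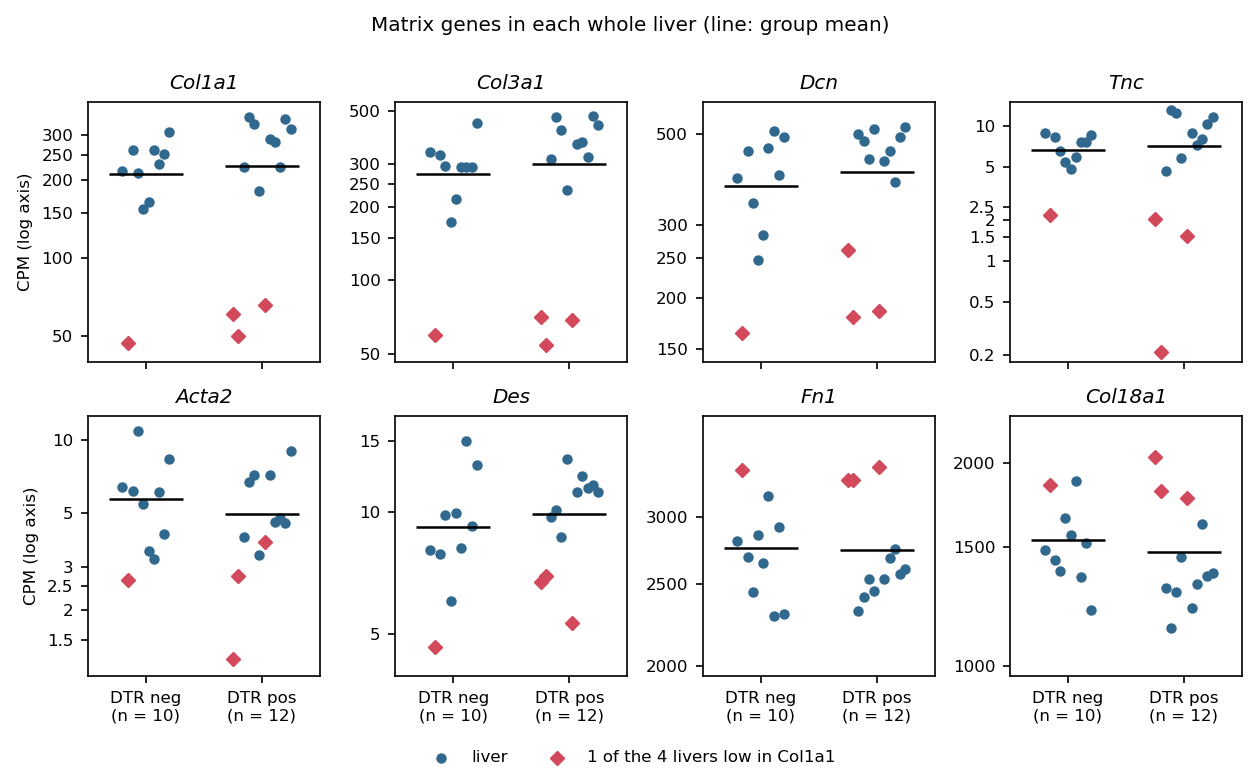
CPM (log axis) of 8 extracellular matrix genes in 22 whole livers after 4 weeks of CDAHFD NASH diet, split by DTR label. Each point is a liver, the line is the group mean and red diamonds are the 4 livers with Col1a1 between 46.6 and 65.4 CPM; the DTR neg and DTR pos points overlap for each gene.

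The comparison of DTR pos with DTR neg livers, which asks whether a Kupffer cell depletion allele changes the liver's RNA, gave no called member. The 12 DTR pos livers held Col1a1 at 49.6 CPM in the lowest, a median of 254 and 352 in the highest, and the 10 DTR neg livers at 46.6, 224 and 308 CPM. Col3a1 ran from 54.5 through a median of 344 to 473 CPM in DTR pos and from 59.8 through 293 to 446 CPM in DTR neg livers. The ranges of the 2 labels overlapped for both genes, as they did for all 44 members. Of the 44 members tested, 0 were higher and 0 lower (0.0% of all 12682 genes tested were called either way, with 477 genes at an unadjusted p under 0.05). DESeq2 and limma also called 0 members. At an unadjusted p under 0.05 stood 2 members: Fbln2, an elastic fibre protein (log2 difference 0.37 ± 0.15 SE), and Col8a1 (0.79 ± 0.33).

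The point estimates of the members leaned to one side without passing the test. DTR pos was above DTR neg in 37 members and below in 7, with a median log2 difference of 0.11 beside 0.00 over all genes tested. The lean depended on single livers: without DTR neg replicate 2 there were 30 members above and a median of 0.03. The 4 livers that stood apart, 3 of which are DTR pos, were picked by their low Col1a1, itself a member. Leaving them out can therefore by itself raise the DTR pos estimates of genes that follow Col1a1. Without these 4 livers, 40 members were above and the median was 0.27. The counts by edgeR were then still 0 higher and 0 lower, but 28 of the 44 members, and 1549 of all 12702 genes tested, had an unadjusted p under 0.05. Col8a1 (0.89 ± 0.26, unadjusted p = 0.00244) and Fbln2 (0.44 ± 0.13, unadjusted p = 0.00286) had the smallest, both at an edgeR adjusted p of 0.388. The leading member of each role group by TPM gave log2 differences, with SE, of 0.13 ± 0.35 for Col3a1, -0.06 ± 0.10 for Col18a1, 0.10 ± 0.18 for Col14a1 (a fibril-associated collagen), -0.01 ± 0.09 for Fn1, 0.11 ± 0.20 for Dcn, 0.09 ± 0.20 for Sparc, 0.07 ± 0.26 for Loxl1 (a lysyl oxidase) and -0.01 ± 0.28 for Vim. The edgeR adjusted p was 1.0 for each of the 8. Fn1 and Col18a1 had the smallest SE of the 8 and Col3a1 the largest. Without the 4 livers the same 8 differences were 0.35 ± 0.15, -0.16 ± 0.08, 0.20 ± 0.10, -0.08 ± 0.07, 0.24 ± 0.12, 0.23 ± 0.10, 0.21 ± 0.13 and 0.17 ± 0.13, so that of Vim changed sign. Their edgeR adjusted p was 0.388 to 0.642.

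By role group, basement membrane members had the largest median log2 difference (0.23, 8 of 9 above), then the fibronectin and elastic fibre members (0.20, 5 of 6), the beaded-filament and fibril-associated collagens (0.16, 6 of 6), the fibril-forming collagens (0.12, 5 of 6), the proteoglycans (0.11, 3 of 3), the matricellular proteins (0.09, 4 of 5), the lysyl oxidases (0.08, 3 of 3) and the mesenchymal genes (0.05, 3 of 6). Without the 4 livers the medians in the same order were 0.31, 0.37, 0.33, 0.31, 0.24, 0.27, 0.26 and 0.18. None of the 19 tested genes of collagen and matrix processing, which hydroxylate, fold and trim procollagen, and none of the 21 tested TGF-beta pathway genes were called, with or without the 4 livers. Neither were the 13 tested stellate cell markers nor the 5 tested portal fibroblast markers, whose summed levels were 407 to 723.6 and 12.4 to 54.7 CPM in DTR pos and 358.5 to 677.8 and 11.5 to 66.0 CPM in DTR neg livers. In whole tissue, fewer cells of a type and less RNA per cell cannot be told apart.

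Across livers, most matrix genes correlated positively with Col1a1. Because 4 livers form a cluster of their own, the relation was measured in the other 18, whose Col1a1 still varied 2.27-fold. There Col1a2, which encodes the partner chain of type I collagen, followed Col1a1 most closely (Pearson's r = 0.97, Spearman's rho = 0.98, permutation adjusted p = 0.00302 and 0.00604 over all 12681 genes). Next came Col3a1 (r = 0.95, rho = 0.87), Col5a2 (0.92 and 0.90), Sparc (0.90 and 0.86), Col5a1 (0.90 and 0.88) and Col6a1 (0.90 and 0.92). With an adjusted p under 0.05 for r, 35 of the other 43 members correlated positively and 0 negatively, where 8.83% of all genes tested correlated positively and 7.53% negatively. The median r was 0.80 over the members and -0.00 over all genes.

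The number of members that passed depended on a few livers. Without the 2 livers farthest from the median of Col1a1, 2 members passed, Col1a2 (r = 0.95, rho = 0.97) and Col5a1 (r = 0.91, rho = 0.85), both at a permutation adjusted p of 0.0317 for r, where 0.0315% of all genes passed positively and 0.0% negatively. The median r of the members was then 0.66 in the 16 livers. Leaving out livers with extreme Col1a1 narrows its range, which by itself can lower r. The adjusted p also has a floor set by the number of permutations, so the count passing does not measure the strength of the relation. Taken as deviations from the DTR pos and DTR neg means, 29 members passed in the 18 livers, all positive, with 3.96% of all genes positive and 2.94% negative. With the 4 separate livers added back, so that a gap runs through the points, 40 members passed as positive and 2 (Fn1 and Col18a1) as negative, with 26.2% of all genes positive and 23.9% negative.

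**Figure D2:**
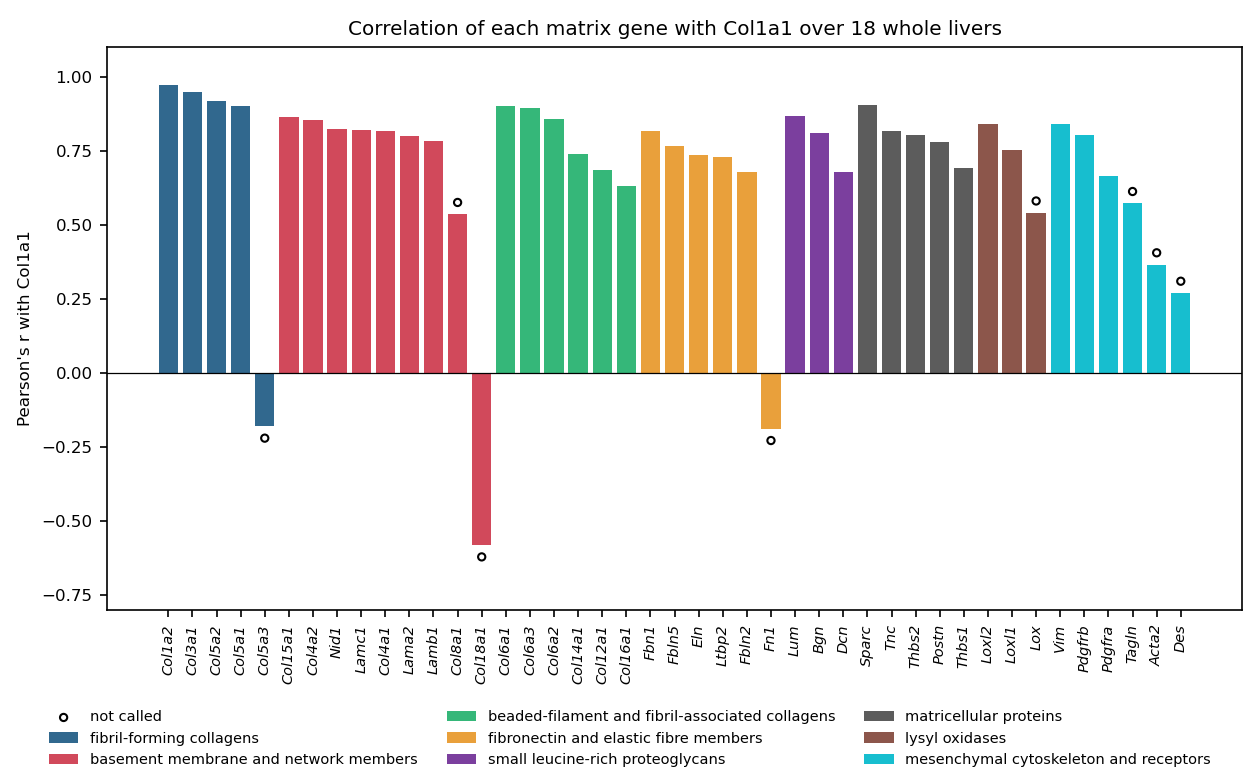
Bars give Pearson's r of each member with Col1a1, on log2(CPM + 1), across the 18 whole livers outside the low cluster, coloured by role group; open circles did not pass a permutation adjusted p of 0.05. The fibril-forming chains Col1a2 and Col3a1 reach 0.97 and 0.95, whereas Fn1, Col5a3 and Col18a1 lie below 0.

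The members that did not follow Col1a1 were of 3 kinds. The hepatocyte-expressed Col18a1 ran opposite in point estimate (r = -0.58, rho = -0.67), with a permutation adjusted p of 0.0599 for r and 0.045 for rho. Fn1 (r = -0.19, adjusted p = 0.635) and Col5a3, a type V collagen chain (r = -0.18, adjusted p = 0.65), gave no relation beyond the spread, and on TPM their r was 0.49 and 0.15. Col8a1 (r = 0.54), Lox (0.54) and the contractile genes Tagln (0.57), Acta2 (0.36) and desmin (Des, 0.27) had positive values that did not pass, at adjusted p of 0.0917, 0.0873, 0.0668, 0.299 and 0.469 by permutation. Acta2, the smooth muscle actin that marks activated stellate cells in textbooks, was at 1.25 to 10.96 CPM in the 22 livers, so its reads were few. On the TPM scale 38 members passed, all positive, but so did 37.0% of all genes, with 1.89% negative.

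Markers of several cell types moved with Col1a1 in the same 18 livers. Each list was taken as the mean of log2(CPM + 1) over its genes, not as a sum. Of 14 relations with these list means and the read total, 7 passed by permutation with Benjamini-Hochberg adjustment over the 14. The TGF-beta pathway (r = 0.86, rho = 0.79, adjusted p = 0.00014), portal fibroblast markers (r = 0.83, rho = 0.75) and collagen and matrix processing (r = 0.81, rho = 0.79) were positive. So were recruited macrophage markers (r = 0.79, rho = 0.77, adjusted p = 0.00056), cholangiocyte markers (r = 0.71, rho = 0.67) and stellate cell markers (r = 0.63, rho = 0.48, adjusted p = 0.00798 for r and 0.0803 for rho). Hepatocyte markers were negative (r = -0.71, rho = -0.67, adjusted p = 0.00168). Kupffer cell markers (r = -0.37), sinusoidal endothelial markers (r = 0.01) and the read total (r = -0.06) did not pass. Without the 2 farthest livers 4 of these relations passed: matrix processing, the TGF-beta pathway (r = 0.74), portal fibroblasts (r = 0.69) and cholangiocytes (r = 0.59).

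Promoter sequence is shown for members at the 2 ends of this relation, Col1a2 and Col3a1 at the top and Col18a1 at the bottom. The sequences are the 250 bases before the RefSeq start on GRCm38.p6, 5′ to 3′ along the gene. Capitals mark 3 motifs searched on either strand. They were CCAAT, the box of that name, which reads ATTGG on the other strand. The next was TATAAA, the core of the TATA box, which in reverse reads TTTATA. The last was GGGCGG, the GC box, written CCGCCC when it lies on the opposite strand. No 2 matches overlap in the sequences shown.
Col1a2, chr6:4505368-4505617, plus strand: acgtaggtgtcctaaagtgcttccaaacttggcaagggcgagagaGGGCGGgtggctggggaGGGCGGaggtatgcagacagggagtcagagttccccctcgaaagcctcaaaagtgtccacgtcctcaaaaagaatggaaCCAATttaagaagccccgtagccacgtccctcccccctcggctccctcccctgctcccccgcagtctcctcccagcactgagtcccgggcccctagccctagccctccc
Col3a1, chr1:45311288-45311537, plus strand: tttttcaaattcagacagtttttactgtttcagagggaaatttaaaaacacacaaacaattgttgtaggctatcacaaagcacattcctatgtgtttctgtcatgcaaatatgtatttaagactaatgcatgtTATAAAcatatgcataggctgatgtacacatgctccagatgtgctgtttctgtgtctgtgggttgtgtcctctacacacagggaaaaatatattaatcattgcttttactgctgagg
Col18a1 downstream start, chr10:77113706-77113955, minus strand: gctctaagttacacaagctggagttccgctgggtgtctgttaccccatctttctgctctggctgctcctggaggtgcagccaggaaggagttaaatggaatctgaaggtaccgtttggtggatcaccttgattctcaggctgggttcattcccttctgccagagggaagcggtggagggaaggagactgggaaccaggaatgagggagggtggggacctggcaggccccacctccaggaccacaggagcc
In these windows Col1a2 held 1 CCAAT and 2 GGGCGG matches, Col3a1 held 1 TATAAA match, and Col18a1 held none of the 3. The RefSeq promoter table matched 29 of the 44 members with 34 promoters. CCAAT occurred in 32.4% of them, TATAAA in 17.6% and GGGCGG in 55.9%, against 33.8%, 12.4% and 32.7% of all 32851 promoters in the table. These shares were counted over the same window as above, the 250 bases before each start. A match of letters is a description and says nothing about which factor binds there.

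The Col18a1 reads of whole liver came largely from a start inside the annotated gene. RefSeq gives Col18a1, on the minus strand of chromosome 10 (mm10), an upstream start at position 77166530 and a downstream start at 77113705. The first exon of the downstream form runs from 77112959 to 77113705 (747 bases). The downstream form's transcript model took 31672 more reads than the upstream form's over the 22 livers. Spread over that exon, these reads had at least 106% of the density of the shared gene body, 95.7 to 114% in single livers. The same bound was 97.4% in Ly6C-high recruited macrophages (231 reads) and 48.2% in Kupffer cells on NASH diet (10 reads). Blood monocytes had 0 extra reads, of 2 in all. This measure was chosen after the values had been seen.

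Ly6C-high macrophages of the NASH liver differed from Ly6C-high blood monocytes in nearly the whole gene group. Of the 44 members, 39 were higher in the liver macrophages and 0 lower by edgeR at an adjusted p under 0.05, where 27.3% of all 14407 genes tested were higher and 21.3% lower. In blood 21 members had 0 reads, so their folds are lower bounds set against 3 reads over both libraries. Biglycan was at 206 and 228 CPM in liver macrophages and 0 in both blood libraries, at least 2410-fold higher. Col3a1 (84.4 and 139 CPM), Col1a1 (97.6 and 123 CPM) and Dcn (90.1 and 100.2 CPM) were likewise at 0 in blood, and were at least 1240-fold, 1230-fold and 1060-fold higher. The edgeR adjusted p of these 4 genes was 1.37e-06, 0.000282, 0.00029 and 8.58e-06. With each gene without blood reads set at its bound, the median log2 difference was 6.37, beside -0.01 over all genes.

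The 5 members not called all had reads in both blood libraries. Fn1 was at 10970 and 13030 CPM in blood monocytes and 10130 and 8110 CPM in the liver macrophages, with a log2 difference of -0.40 ± 0.35 that did not pass (adjusted p = 0.377). Vim (2746 and 2134 against 2200 and 1983 CPM), Lamc1, a laminin chain (22.2 and 32.2 against 31.6 and 30.5 CPM), Acta2 (10.8 and 12.2 against 8.22 and 7.23 CPM) and Tagln did not pass either. Thbs1, which encodes thrombospondin 1, an activator of latent TGF-beta, was higher in the liver macrophages, at 305 and 236 CPM against 43.6 and 120 CPM. Markers of other liver cells rose in the same libraries. All 14 stellate cell markers were higher, with sums of 371.5 to 417.7 CPM against 55.1 to 56.1 CPM in blood, all 10 sinusoidal endothelial markers (982.2 to 1043 against 1.94 to 1.95 CPM) and 11 of 12 hepatocyte markers (1466 to 3901 against 5.37 to 9.62 CPM). Their part in the result was not tested.

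Set against whole liver on the TPM scale, the sorted cells held less of most members. The median member stood at 57.8% of its whole liver level in Ly6C-high macrophages, 31.9% in Ly6C-low macrophages, 24.1% in Kupffer niche recruited macrophages, 16.7% in Kupffer cells on NASH diet, 5.18% in Kupffer cells on control diet and 0.0131% in blood monocytes. Set against the 18 livers alone, these medians were 49.3%, 28.6%, 20.6%, 14.3%, 4.53% and 0.0116%. The sets were made separately and no test was run between them. Vim and Thbs1 exceeded the liver level in each of these 6 groups, from 255 to 2066% for Vim and from 101 to 2578% for Thbs1. Fn1 did so in blood monocytes (513%) and Ly6C-high macrophages (403%) and in no other group of this set. Col15a1, a basement membrane collagen related to Col18a1, exceeded it in the 4 macrophage groups of the NASH liver, from 106% in Kupffer cells to 328% in Ly6C-low macrophages. Against the 18 livers, Thbs1 in Kupffer cells on control diet and Col15a1 in Kupffer cells on NASH diet no longer exceeded the liver level.

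**Figure D3:**
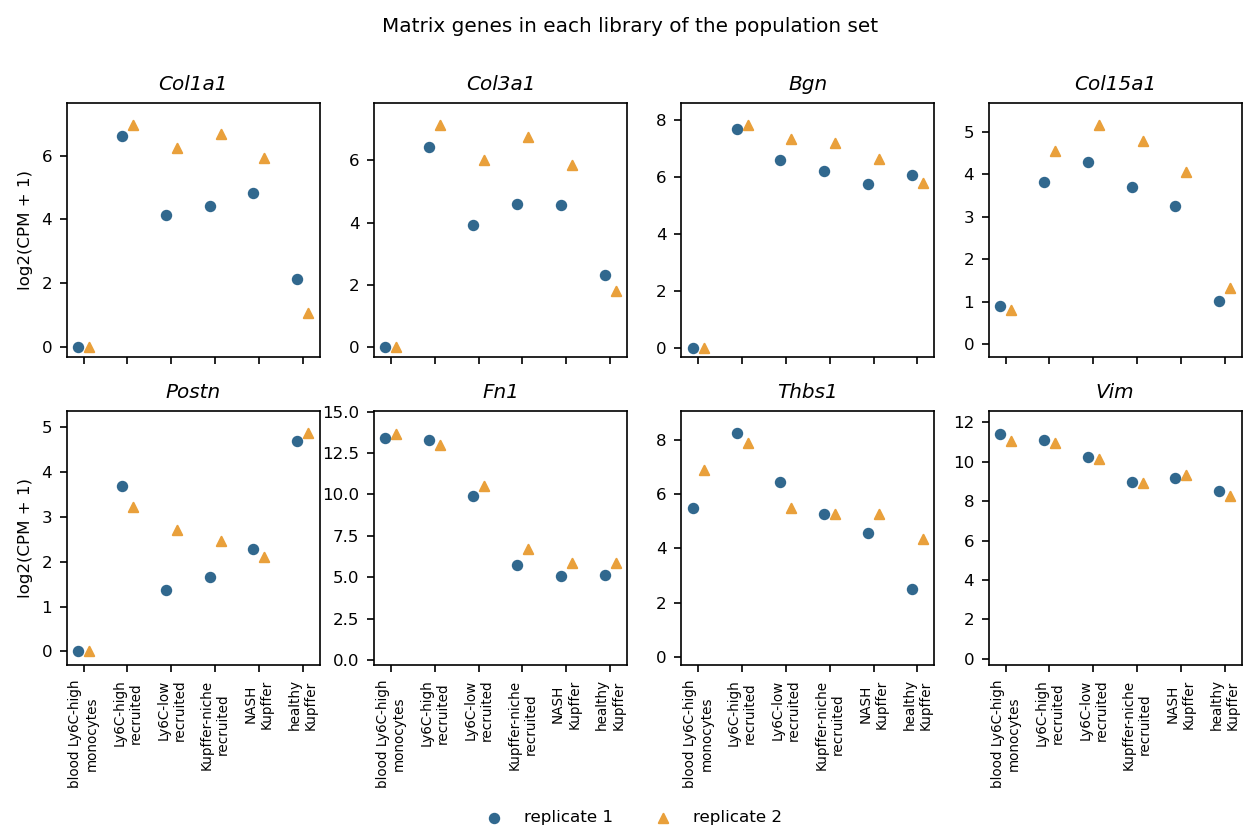
log2(CPM + 1) of 8 members in the 6 sorted groups of the first set, with a circle for replicate 1 and a triangle for replicate 2. Col1a1, Col3a1 and Bgn are at 0 in blood monocytes, Postn stands highest in Kupffer cells on control diet, and Fn1 separates blood monocytes and Ly6C-high macrophages from the Kupffer cell groups.

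Kupffer cells from NASH livers carried more RNA of many matrix genes than those from mice on control diet. Col1a1 was at 27.4 and 59.2 CPM on NASH diet and 3.34 and 1.12 CPM on control diet, and the libraries did not overlap. Its log2 difference was 4.24 ± 0.97 (SE, edgeR adjusted p = 0.0144). Tnc, which encodes the matricellular protein tenascin C, was at 0.978 and 2.56 CPM against 0 and 0.149 CPM. That is a ratio of 26.7, with a 95% counting interval of 6.99 to 226, and an edgeR adjusted p of 0.018. Thbs2, another thrombospondin, was at 2.61 and 4.41 against 0.253 and 0.224 CPM (log2 difference 3.84 ± 1.14, adjusted p = 0.0392). Lama2, a laminin chain, was at 1.06 and 3.48 against 0.189 and 0.149 CPM (3.69 ± 1.08, adjusted p = 0.0371). Though large as folds, the last 3 are genes of few reads.

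In all 17 of 44 members were higher and 1 lower, where 11.2% of the 14407 genes tested were higher and 9.56% lower. The libraries of the 2 diets did not overlap for 34 members, but the share of all genes without overlap was not counted. With 2 libraries on each diet, genes without a difference can also separate, so this count is not a result about the members. The members called higher were 3 of 6 fibril-forming collagens, 4 of 6 beaded-filament and fibril-associated collagens, 3 of 6 fibronectin and elastic fibre members, 2 of 9 basement membrane members, 2 of 5 matricellular proteins, 2 of 3 lysyl oxidases, 0 of 3 proteoglycans and, of the 6 mesenchymal genes, Vim. Col15a1 was among them, at 8.48 and 15.6 against 1.01 and 1.49 CPM (log2 difference 3.28 ± 0.55, edgeR adjusted p = 0.00249). Dcn and Bgn gave 0.43 ± 0.45 and 0.33 ± 0.36, and Fn1 gave -0.00 ± 0.37, none past the test. The median log2 difference was 1.90 over the members and 0.00 over all genes.

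Periostin (Postn), a matricellular protein that is usually linked to fibrosis, went the other way. It was at 24.9 and 28.4 CPM in Kupffer cells on control diet and 3.91 and 3.34 CPM on NASH diet, a log2 difference of -2.88 ± 0.51 (edgeR adjusted p = 0.0043). In the time course it was not called, at 6.78 to 7.11 CPM at week 0 and 2.18 to 7.95 CPM at week 30.

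The size of the differences in this comparison depended on single libraries. A fit without 1 library leaves 1 in its group, so only effect sizes are given. The median log2 difference of the members was 1.84 without control diet replicate 1 and 1.81 without control diet replicate 2. It was 2.22 without NASH diet replicate 1 and 1.095 without NASH diet replicate 2. With all libraries, limma on log2(TPM + 1) called 6 members higher. NASH diet replicate 2 was the higher of the pair for most members, with hepatocyte markers at 422.4 against 135.7 CPM and portal fibroblast markers at 25.4 against 13.9 CPM. Between the diets, portal fibroblast markers summed to 13.9 to 25.4 CPM on NASH diet and 3.88 to 4.04 CPM on control diet, with 3 of 5 tested genes higher (Dpt, Fbln1 and Thy1). Stellate cell markers summed to 273.3 to 293.9 CPM on NASH diet and 334.6 to 373.8 CPM on control diet, with 1 of 14 higher (Nes) and 2 lower. Hepatocyte and sinusoidal endothelial markers were lower on NASH diet in 3 of 12 and 7 of 10 genes, and recruited macrophage markers higher in 5 of 6. Their part in the result was not tested.

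Some genes that act on the matrix changed in the same Kupffer cells. Of 22 TGF-beta pathway genes 4 were higher and 1 lower, a share near that of all genes tested (11.2% higher and 9.56% lower). Ltbp3, a latent TGF-beta binding protein, was at 91.4 ± 27.3 CPM on NASH diet and 7.21 ± 1.23 CPM on control diet (SD, n = 2 each), a log2 difference of 3.66. Of 20 tested matrix processing genes 6 were higher and 0 lower, among them Plod2, a lysyl hydroxylase (log2 difference 3.67), the collagen chaperone Serpinh1 (2.22) and Crtap (1.18), a part of the prolyl 3-hydroxylation complex.

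Over 30 weeks of diet the Kupffer cell libraries gained matrix gene RNA, with large spread within a week. Col1a1 was at 0.497, 0.117 and 0.289 CPM at week 0, 3.12 and 1.48 at week 1, 4.65 and 1.33 at week 4, 15.1, 28.4 and 9.56 at week 10, 8.82, 20.9 and 11.4 at week 20, and 33.6, 19.1, 10.8 and 79.9 CPM at week 30. Week 30 lay above week 0 in each library, while weeks 10, 20 and 30 overlapped. The log2 difference of week 30 from week 0 was 6.80 ± 0.86 (edgeR adjusted p = 2.63e-05). Col3a1 went from 0.586 to 1.40 CPM at week 0 to 15.5 to 68.4 CPM at week 30 (5.07 ± 0.65, adjusted p = 3.18e-05). Col6a3, a chain of the beaded-filament collagen VI, went from 0.0586 to 0.316 CPM to 4.02 to 31.5 CPM (6.03 ± 1.01, adjusted p = 0.000332). Tnc, with 1 read in all at week 0 and 123 at week 30, gave a ratio of 89.9 with a 95% counting interval of 15.8 to 3580.

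**Figure D4:**
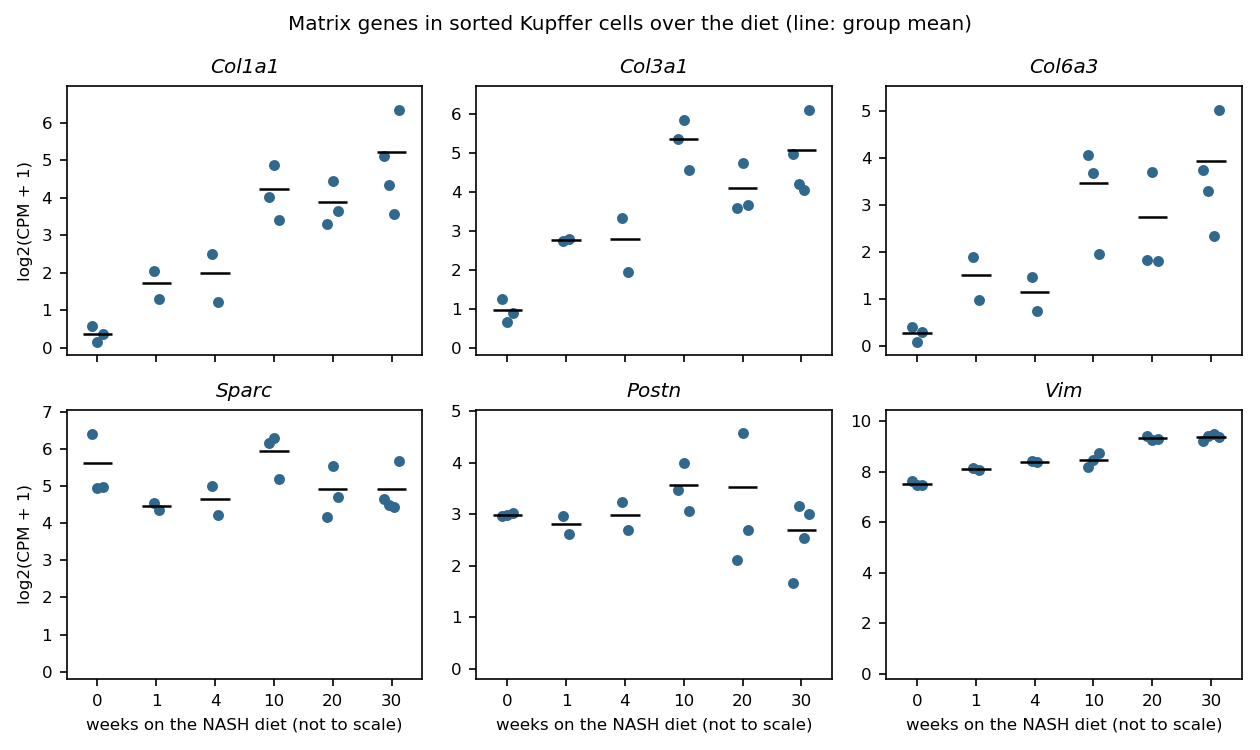
log2(CPM + 1) of 6 members in Kupffer cells at weeks 0, 1, 4, 10, 20 and 30 of NASH diet (week 0 is control diet), each point a library, the line the mean of its week and the weeks not to scale. Week 30 lies above week 0 without overlap for Col1a1, Col3a1, Col6a3 and Vim, and overlaps it for Sparc and Postn.

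At week 30, 27 of the 44 members were higher than at week 0 and 0 lower, where 15.5% of the 14552 genes tested were higher and 15.0% lower. Of those called higher, 5 of 6 were fibril-forming, 5 of 6 beaded-filament or fibril-associated, 4 of 6 fibronectin or elastic fibre, 3 of 3 proteoglycan, 4 of 9 basement membrane, 2 of 5 matricellular, 1 of 3 lysyl oxidase and 3 of 6 mesenchymal genes. Vim had the smallest SE of them, at 175 to 199 CPM at week 0, 266 to 282 at week 1, 331 to 339 at week 4, 291 to 426 at week 10, 608 to 685 at week 20 and 598 to 724 CPM at week 30 (log2 difference 1.85 ± 0.13, edgeR adjusted p = 8.31e-08). The estimates of Col4a1 (-1.08 ± 0.45, unadjusted p = 0.0291) and nidogen 1 (Nid1, -1.33 ± 0.50, unadjusted p = 0.0162), both basement membrane genes, were below 0 and did not pass after adjustment by edgeR. Without week 0 replicate 2, or without week 30 replicate 4, 2 members were called lower.

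Week 0 replicate 1 stood above the other 2 in these basement membrane genes, at 71.5 CPM of Col4a1 against 21.1 and 21.8, at 43.5 CPM of Nid1 against 10.8 and 13.9, and at 84.2 CPM of Sparc against 29.7 and 30.6. Its sinusoidal endothelial markers summed to 2340 CPM against 1081 and 1154 CPM. At week 30 those markers were at 599.7 to 885.3 CPM, with 9 of 10 genes lower than at week 0. Stellate cell markers were at 156.3 to 263.3 CPM at week 0 and 233.9 to 309.9 CPM at week 30, with 6 of 13 tested genes higher. Portal fibroblast markers were higher in 3 of 6, hepatocyte markers in 8 of 12 and recruited macrophage markers in 5 of 6 genes. Their part in the result was not tested.

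Col18a1 had its highest levels early in the time course. It was at 3.16, 0.703 and 0.405 CPM at week 0, 45.5 and 30.2 at week 1, 35.2 and 40.3 at week 4, 27.9, 19.1 and 11.4 at week 10, 5.65, 9.29 and 2.63 at week 20, and 5.38, 13.5, 4.61 and 10.3 CPM at week 30. Hepatocyte markers, which share this gene's main known source in liver, summed to 50.1 to 142.2 CPM at week 0, 3228 to 4717 at week 1, 1497 to 2010 at week 4, 597.6 to 2867 at week 10, 153 to 896.5 at week 20 and 243.8 to 922 CPM at week 30. Between weeks 30 and 0 Col18a1 was higher (log2 difference 2.50 ± 0.60, edgeR adjusted p = 0.00482), and the other weeks were not tested. The part of hepatocyte RNA in these values was not tested.

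Of the TGF-beta pathway genes 7 of 22 were higher at week 30 and 1 lower, where 15.5% of all genes tested were higher and 15.0% lower. Among those higher were Ltbp3 (85.5 ± 18.2 against 4.90 ± 0.20 CPM, log2 difference 4.12) and the ligand Tgfb3 (31.2 ± 8.52 against 3.85 ± 1.08 CPM, 3.01; SD, n = 4 and 3). Of 20 tested matrix processing genes 8 were higher and 3 lower. Adamts2, the procollagen N-proteinase, was higher by 4.69 on the log2 scale, and the prolyl hydroxylase P4ha2 fell by 1.54.

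Between Kupffer niche recruited macrophages and Kupffer cells of the same NASH diet group, no member passed the test. Col1a1 was at 20.5 and 102 CPM in the recruited cells and 27.4 and 59.2 CPM in Kupffer cells, and Col3a1 at 23.1 and 107 against 22.5 and 56.9 CPM. The recruited pair spanned the Kupffer cell pair in Col1a1 and overlapped it in Col3a1. By edgeR 0 members were higher and 0 lower, where 0.333% of the 14407 genes were higher and 0.201% lower, and DESeq2 and limma also called 0. At an unadjusted p under 0.05 stood 1311 of all 14407 genes tested and, of the members, Col14a1 alone (28.2 and 47.0 against 15.98 and 25.9 CPM, log2 difference 0.84 ± 0.35). The point estimates were above 0 for 37 members and the median was 0.40, beside 0.01 over all genes, but their sign rested on single libraries. Without recruited replicate 2 the estimates were above 0 for 7 members with a median of -0.55, and without Kupffer cell replicate 1 for 20 with a median of -0.02. Without recruited replicate 1 or Kupffer cell replicate 2 they were above 0 for 42 and 41 members, with medians of 0.89 and 1.07. In the matrix processing list 1 gene was called, Pcolce2, an enhancer of procollagen cleavage, which was lower in the recruited cells (-1.54).

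Ly6C-low recruited macrophages differed from Kupffer niche recruited macrophages in 3 members. Fn1 was at 959 and 1441 CPM in Ly6C-low and 52.6 and 101 CPM in Kupffer niche cells, a log2 difference of 3.97 ± 0.40 (edgeR adjusted p = 3.3e-05). Nid1 was at 18.5 and 26.5 against 6.90 and 11.7 CPM (1.28 ± 0.32, adjusted p = 0.0109). Vim was at 1189 and 1111 against 507 and 490 CPM (1.21 ± 0.15, adjusted p = 0.000121). These 3 members were higher and 0 lower, where 15.3% of all genes were higher and 18.1% lower. Without Kupffer niche replicate 2, in which most matrix genes were above replicate 1, the median log2 difference of the members was 1.06. With all libraries it was 0.08.

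The fibrillar chains did not separate these macrophages: all 6 had estimates below 0, from -0.75 to -0.44, and none passed. The sign rested on single libraries. Without Kupffer niche replicate 2 all 6 were above 0, the lowest at 0.10, and without Ly6C-low replicate 1, 5 of 6 were, from -0.03 to 0.52. Over the 44 members, 25 estimates were above 0 with all libraries and 42 without Kupffer niche replicate 2. Matrix processing genes were lower in Ly6C-low cells in 7 of 20 tested genes and higher in 1. Pcolce2 fell by 5.29 on the log2 scale, P4ha2 fell by 3.32 and the lysyl hydroxylase Plod1 fell by 2.20. In the TGF-beta pathway 6 of 22 were higher and 2 lower, beside the 15.3% and 18.1% of all genes. The co-receptor Tgfbr3 (2.36) and the TGF-beta-induced matrix protein Tgfbi (1.24) were higher and the inhibitory Smad6 (-1.20) was lower. Sinusoidal endothelial markers were higher in 9 of 10 genes, at 605 to 608.9 against 466.6 to 499.9 CPM. Mesothelial markers were lower in 5 of 6, at 1.18 to 2.09 against 11.9 to 24.1 CPM, and their part in the result was not tested.

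Floxed LXR genes with Clec4f-cre addressed whether these lipid-sensing nuclear receptors act in Kupffer niche recruited macrophages. The targeted genes were not lower in the libraries labelled Clec4f-cre pos. Nr1h3, the gene of LXRa, was at 186.9, 451.1 and 298.5 CPM in them and 246.6, 282.1 and 306.8 CPM in Cre neg, and Nr1h2, the gene of LXRb, was at 61.1, 82.5 and 64.5 against 51.1, 33.3 and 36.6 CPM. Counts over whole transcripts do not check the loss of a part of a gene, and directions below rest on the labels. Of the 44 members 29 had enough reads to test. Of these 0 were higher and 0 lower by edgeR, where 0.174% of the 11480 genes tested were higher and 0.0348% lower. An unadjusted p under 0.05 was found for 2 members and for 947 of all 11480 genes tested.

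These 2 members were Col15a1 and Thbs1. Col15a1 was at 18.4, 8.01 and 18.8 CPM in the libraries labelled Cre pos and 3.88, 3.81 and 2.42 CPM in Cre neg, without overlap (log2 difference 2.14 ± 0.46, edgeR unadjusted p = 0.00085, adjusted p = 0.111). Thbs1 was at 29.1, 21.2 and 30.1 against 15.5, 9.28 and 13.2 CPM (1.09 ± 0.30, adjusted p = 0.217), also without overlap. DESeq2, edgeR without the filter on low counts, and edgeR without Cre pos replicate 2 each called 1 member higher. Tgfbi, of the TGF-beta pathway list, was called higher (1.31, edgeR adjusted p = 0.049), at 615.9 ± 132 against 247.9 ± 28.2 CPM (SD, n = 3). Ccr2, a monocyte chemokine receptor and the 1 called recruited macrophage marker of 5 tested, was higher in the same libraries, by 2.27 on the log2 scale, and its part in the result was not tested.

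Fibronectin RNA can be spliced to include the extra domain A (EDA) exon, which is known from cellular fibronectin of wounds and fibrosis and is left out of the plasma form made by hepatocytes. The exon lies within the coding sequence of Fn1 at chr1:71603660-71603929 on the minus strand of mm10, exon 32 of 45 in the RefSeq form that holds it, and is 270 bases long. It is shown because the difference between cells below is the use of these bases.
Fn1 EDA exon, coding strand: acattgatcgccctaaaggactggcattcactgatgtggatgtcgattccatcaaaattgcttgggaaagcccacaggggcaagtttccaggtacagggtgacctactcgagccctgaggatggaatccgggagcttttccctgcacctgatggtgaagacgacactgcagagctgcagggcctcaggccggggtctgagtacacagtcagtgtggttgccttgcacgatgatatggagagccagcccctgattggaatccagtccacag
Reads on the exon were taken as the difference between deposited counts of transcript models that differ only by it, and set as a density against the rest of Fn1. This measure was chosen after the values had been seen.

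Blood monocytes had the densest EDA reads, at 11.3% of the density of the rest of the transcript (95% counting interval 10.7 to 11.9, 1509 reads, replicates 11.3 and 11.2%). Ly6C-high liver macrophages were at 6.96% (6.46 to 7.49, 713 reads) and Ly6C-low macrophages at 6.37% (5.19 to 7.74, 101 reads). Whole livers were at 2.19% in DTR neg (1.85 to 2.57, 148 reads) and 2.58% in DTR pos (2.23 to 2.96, 200 reads), with single livers from 0.44 to 3.82%, and without the 4 livers at 2.27% (1.91 to 2.67) and 2.72% (2.31 to 3.18). The intervals of the liver groups did not reach those of the 3 monocyte and recruited groups, while the 2 liver labels overlapped. The Kupffer cell, Kupffer niche and LXR groups held 19 or fewer such reads each and allow no comparison. In blood replicate 1 another pair of transcript models gave 1000 EDA reads where the pair used gave 894, so the level depends on the pair.

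**Figure D5:**
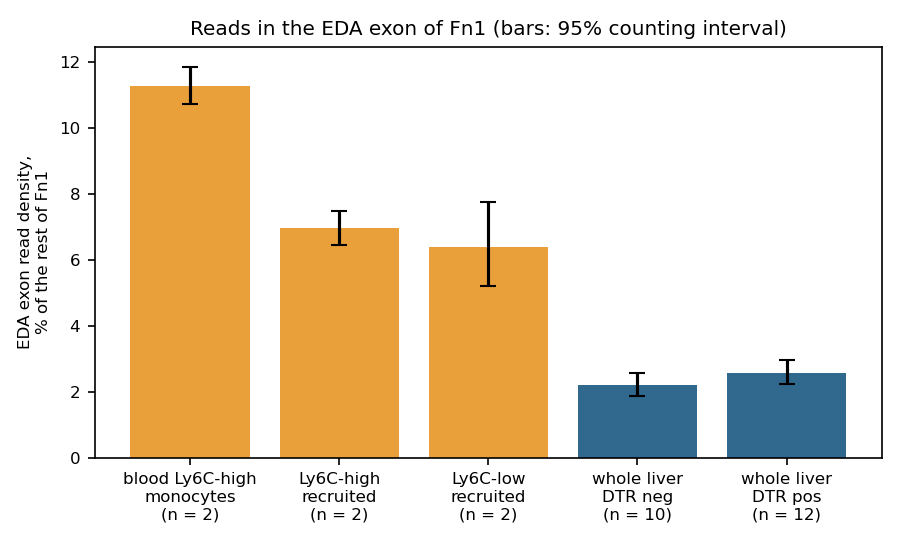
Read density on the EDA exon of Fn1 as a percent of the density on the rest of the transcript, in the 5 groups with enough reads, with 95% counting intervals over the summed reads of a group. Blood monocytes stand at 11.3%, the 2 recruited groups near 6.96 and 6.37%, and the whole livers at 2.19 and 2.58%.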

How the data were processed

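RNA-seq was done on whole liver and sorted cells. The submitters' processing notes name the build mm10 and the tools STAR, HOMER and DESeq2, without versions or roles. Per the file headers, the deposited tables hold raw counts over exons per RefSeq transcript (HOMER analyzeRepeats.pl) and TPM values made by the authors from the same libraries. Strand use and read filters are not given in the sources used here.

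Each of 40458 transcripts was assigned to its symbol, and the transcript with the highest total count stood for each of 24941 genes (7630 symbols had more than 1 transcript). All 57 libraries were mapped to 16 groups from their labels, and 0 columns of values were left unmapped. No 2 libraries of the same group agreed within sampling noise, and pairs across groups were not compared. Each set of libraries was fitted on its own in R 4.3.3 with edgeR 4.0.16 (two-sided quasi-likelihood test after TMM scaling, keeping genes by filterByExpr at a minimum count of 10 and minimum total of 15), with all groups of a set sharing the spread, and Benjamini-Hochberg adjustment over all genes tested. The procedure was tested on simulated data. Correlations used log2(CPM + 1), 100000 permutations (Python 3.11.15, numpy 2.4.6, scipy 1.17.1) and adjustment over all genes in place of the 43 relations first planned. With 1e-05 as the smallest p these permutations can give, adjusted values have a floor. Groups without reads were set at a floor of 3 reads over the group for fold bounds. Intervals are at 95%.

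Statistics are given in full for the leading member of each role group in whole liver and for the 4 called members with the largest difference in each direction in a sorted comparison, with up to 3 genes of each other list, of which 1 is not reported here; the exceptions named beside them were chosen after their values were seen. The members and lists were chosen with earlier results of these data known. Alternatives were DESeq2 1.42.0, limma 3.58.1 on log2(TPM + 1), RLE size factors, no filter, the longest transcript, a replicate block, fits of 2 groups alone and each library left out. Promoter sequences are RefSeq's on GRCm38.p6 (mm10). The EDA exon sequence and the exon bounds of Fn1 and Col18a1 came from GENCODE models matched to the RefSeq transcripts. The motif matches cover the members found in the promoter table.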

Additional observations from a re-analysis of the deposited data

Results flagged for a closer look

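In groups of 4 to 10 libraries, a library was picked out when its gap to the nearest other one was large for the range of the group (Dixon's test at 95%). Of the 88 gene and group pairs tested, chance would pick about 1 in 20. In Kupffer cells at week 30, replicate 4 was the highest of the 4 libraries and picked out in 7 members: Sparc at 49.9 CPM, Col4a2 at 20.9 CPM, Col5a1 at 8.45 CPM, Fbn1 at 7.85 CPM, Thbs2 at 4.6 CPM, Lama2 at 3.09 CPM and Acta2 at 1.95 CPM. In the same library portal fibroblast markers summed to 35.9 CPM, against 12.5 to 35.1 CPM in the other 3, and stellate cell markers to 306.1 CPM, against 233.9 to 309.9 CPM. Without it 2 members were called lower at week 30 than at week 0. In whole liver, Ltbp2, an elastic fibre member, was picked out in DTR neg replicate 10 at 15.2 CPM, where the DTR neg median was 5.87 CPM.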

How the results depend on the processing

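Of the counts of members and relations recomputed under a setting other than a left-out library, 87 stayed within 1.5 times the reported count and 17 did not. For Kupffer cells on NASH against control diet, 29 members were higher without the filter on low counts and 6 by limma. For week 30 against week 0, 1 member was lower without the filter and 1 in a fit of the 2 groups alone. In the LXR set, 1 was higher by DESeq2 and 1 without the filter, and for Ly6C-low against Kupffer niche macrophages limma called 5 higher. For correlation with Col1a1 over all 22 livers, which include the separate cluster of 4, 40 members were positive and 2 negative, and 11 of 14 marker relations passed. The 18 livers gave 35 and 7, their deviations from group means 29 and 6, and the 16 livers without the 2 farthest 2 and 4. These alternatives on fewer livers were chosen after seeing the data.

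Leaving out 1 library at a time gave 0 to 2 members lower at week 30 and 0 to 1 higher in the LXR set. In the comparisons of 2 against 2 libraries it left 1 library in a group, so medians are given. The median log2 difference of the members ran from 1.095 to 2.22 for NASH against control diet. For Ly6C-low against Kupffer niche macrophages it ran from -0.669 to 1.06. Over all comparisons, 93 counts of members called stayed within 1.5 times and 9 did not.

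The replicate numbers could pair libraries only as numbers. Deviations of same-numbered libraries correlated at -0.39 to 0.778 in whole liver (over 0.1 in 5 of 10 pairs, and 2 correlated best with their own number), at -0.065 to 0.0987 for weeks 30 and 0, at -0.0304 to 0.232 in the LXR set, and at 0.142, 0.573, 0.471 and -0.0857 in the 4 comparisons of 2 against 2. With the replicate block, 2 members were lower for NASH against control diet, 15 higher and 1 lower for Kupffer niche macrophages against Kupffer cells, 11 higher and 4 lower for Ly6C-low against Kupffer niche macrophages, and 1 lower at week 30. The share of all genes called with the block is not given here, so these counts do not set the members apart from other genes. The block left 0 called in whole liver, with 23 members above and a median log2 difference of 0.007. These fits kept only replicate numbers found in both groups. DTR pos replicates 11 and 12, with Col1a1 at 346.0 and 317.5 CPM, and week 30 replicate 4 were thereby left out. The effect of the block was not tested apart from that of the libraries left out.

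Among the named genes, 143 values outside left-out libraries kept direction and side of the threshold, 3 lost the call and 6 changed sign. All 6 were whole liver differences that had not passed: Col3a1 at -0.002 by limma and -0.184 with the block, Fn1 at 0.025 and 0.007, Sparc at -0.029 with the block, and Vim at 0.165 without the 4 livers. With 1 library left out, 216 kept both, 14 lost the call and 22 changed sign. The sign changes were of Fn1 (-0.039 to 0.033), Vim (-0.123 to 0.093) and Loxl1 (-0.041 to 0.209) in whole liver. The cause of these changes was not tested. Members with few reads, such as Tnc and Lama2 in Kupffer cells, are limited by depth.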
